A study of Arabidopsis thaliana with 6 samples.

Results

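The genes described here are rapid touch, wound and calcium response genes of Arabidopsis, a list of 33 loci that holds zinc fingers, ERF factors, calmodulin-like and EF-hand genes, JAZ genes, kinases and a few membrane and ubiquitin ligase genes. A locus was taken as measured where the annotation of the array gives it a probe set of its own, or where a list of changed genes published with the arrays names that probe set. This found a probe set for 7 of the 33 loci, out of 22746 probe sets without controls. The 7 are STZ (AT1G27730), SZF1 (AT3G55980), ERF104 (AT5G61600), At4g27280 (AT4G27280), CML38 (AT1G76650), CML37 (AT5G42380) and CML39 (AT1G76640). The other 26 loci have no named probe set in the tables used and were not analysed here.

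RNA came from whole 10-day-old seedlings of the Col-0 ecotype, 3 samples of frb1-1 and 3 of the wild type (FRB1), described by the labels as biological replicates. All seeds were kept cold and dark for 4 days and then grown at 21 °C on half-strength medium under constant light. The frb1-1 line carries a T-DNA insertion in the upstream region of FRB1, a gene needed for cell adhesion, and the study, which saw a faint band of FRB1 transcript in this line by RT-PCR, took it for a partial loss of function. It is 1 insertion line, and other frb1 alleles were not hybridised. Each sample was hybridised to 1 ATH1 array, on which sets of short oligonucleotides, the probe sets, each measure a transcript. No probe set is named for FRB1 itself, and its level was not used to check the labels.

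Touch, wounding and cold raise the calcium level of plant cells within moments. Calcium is read by calmodulin, by calmodulin-like proteins and by other proteins with EF hands, the loops that bind it. MAP kinases and jasmonate carry the signal further, and genes of zinc finger and ERF transcription factors are switched on early and often briefly. Such transcripts are known to respond to handling of the plants as well as to lasting conditions. In whole seedlings, a change in the share of responding cells and a change in the RNA of each cell cannot be told apart.

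Values are MAS 5.0 signal intensities on a linear scale, and differences are of mean log2 signals, frb1-1 minus wild type. The 15218 probe sets whose log2 signal averaged 6 or more over the 6 arrays (a signal of 64) were tested with limma, and p-values were adjusted over all of them by the Benjamini-Hochberg method. Of the 7 named members, 5 passed this minimum and 2, CML37 and CML39, did not. An exact permutation test (two-sided) of each tested member gave 0.10, the smallest p that 3 arrays a group allow. For SZF1, ERF104 and CML38, for reasons given below, this value is a description.

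At4g27280 and STZ, both named by the annotation of the array and measured in both genotypes, rose in frb1-1 seedlings, with ratios of mean signals, frb1-1 to wild type, of 3.98 and 3.69. Both passed the limma test at an adjusted p under 0.05, which 0.276% of all probe sets tested did in this direction and 0.092% in the lower one. Of the 5 tested members, these are the ones that needed no change on these arrays to be named or to pass the minimum. The members were, however, chosen with earlier results of these data known, so that their tests do not stand apart from those results. The published list holds At4g27280 but not STZ. SZF1 and ERF104 were named by the published list alone, which holds genes for their change on these same arrays, so that their values are a description with no test. CML38 passed the minimum only through its frb1-1 arrays and did not pass the test. For each of the 5, every frb1-1 array lay above every wild-type array, which held for 6.26% of all probe sets tested, and each had a ratio of mean signals of at least 2, which held for 1.18% (0.48% in the lower direction). Nothing is read from these 2 counts, since they include SZF1, ERF104 and CML38, which needed a change, or high frb1-1 signals, to be tested.

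**Figure D1:**
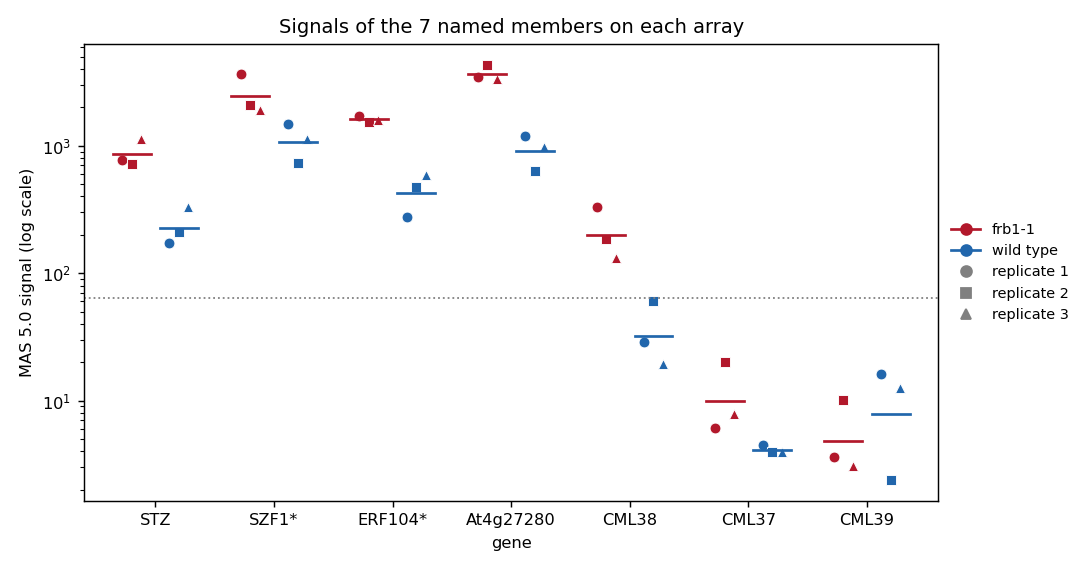
MAS 5.0 signal (log axis) of the 7 named members on each array, frb1-1 in red and wild type in blue, with a symbol for each replicate and a bar at the geometric mean of each group. The dotted line is a signal of 64, and an asterisk marks genes named by the published list alone. For STZ, SZF1, ERF104, At4g27280 and CML38 every red point lies above every blue one, while CML37 and CML39 lie far below the line.

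STZ, also called ZAT10, is a zinc finger protein of the C2H2 type that represses transcription and is known for its response to salt, cold and wounding. Its signals were 773, 720 and 1129 on frb1-1 replicates 1 to 3, and 172, 209 and 330 on wild-type replicates 1 to 3. The lowest frb1-1 array stood 2.18 times above the highest wild-type array, and replicate 3 was the brightest in both groups. The mean signal was 874 ± 223 in frb1-1 and 237 ± 82.6 in the wild type (SD, n = 3 each). The log2 difference was 1.91 (standard error 0.29, 95% interval 1.28 to 2.54), with an adjusted p of 0.0149 from limma. By p it was number 31 of the 15218 probe sets, and by the size of the rise number 39. The call of STZ was lost without frb1-1 replicate 1 (adjusted p = 0.0736 from limma), frb1-1 replicate 3 (0.0629), wild-type replicate 1 (0.0835) or wild-type replicate 2 (0.0834), and the log2 difference without any one array stayed between 1.71 and 2.18.

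SZF1 is a zinc finger protein of another type, with paired CCCH fingers, and its transcript is induced by salt. Its signals were 3629, 2099 and 1907 in frb1-1 and 1472, 734 and 1135 in the wild type. The groups came close to each other, as the lowest frb1-1 array was 1.30 times the highest wild-type array. The spread within each group was large beside the difference, with a mean signal of 2545 ± 944 in frb1-1 and 1114 ± 370 in the wild type (SD, n = 3 each). The log2 difference was 1.19 (standard error 0.31), the smallest of the tested members. Of the zinc finger genes in the list, ZAT12, ZAT6 and SZF2 had no named probe set.

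ERF104 is an ethylene response factor that is known as a substrate of the MAP kinase MPK6 in the response to bacterial flagellin. Its signals were 1720, 1536 and 1601 in frb1-1 and 275, 473 and 588 in the wild type. The frb1-1 arrays lay close together, with an SD of 0.08 on the log2 scale against 0.57 in the wild type. The mean signal was 1619 ± 93.1 in frb1-1 and 446 ± 159 in the wild type (SD, n = 3 each), a log2 difference of 1.93 (standard error 0.28). The lowest frb1-1 array was 2.61 times the highest wild-type array. ERF104 lies beside At5g61590 (DEWAX, an ERF factor that represses wax synthesis) on chromosome 5 in the TAIR10.1 annotation. The neighbour had signals of 3910, 4204 and 4301 in frb1-1 and 2592, 4774 and 5005 in the wild type, and these groups overlap. Its log2 difference was 0.06 (standard error 0.25, 95% interval -0.49 to 0.61). ERF5, ERF6, ERF1A, ERF2, ERF4 and ERF109 had no named probe set.

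At4g27280 encodes a small protein with an EF hand. It was the member with the smallest p, number 14 of the 15218 probe sets. Its signals were 3437, 4324 and 3361 in frb1-1 and 1192, 633 and 970 in the wild type. All frb1-1 arrays were bright, and the lowest of them was 2.82 times the highest wild-type array. The mean signal was 3707 ± 535 in frb1-1 and 932 ± 281 in the wild type (SD, n = 3 each), a ratio of 3.98. The log2 difference was 2.03 (standard error 0.25, 95% interval 1.48 to 2.58), with an adjusted p of 0.00513 from limma. The annotation names this gene independently of the published list, which also holds it. With each array left out in turn the gene stayed past the threshold, with a highest adjusted p of 0.0311 from limma. The EF-hand gene PBP1, whose product binds the kinase PINOID, had no named probe set.

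CML38 is a calmodulin-like gene whose transcript is known to respond to wounding and low oxygen. Its signals were 330, 186 and 132 in frb1-1 and 28.8, 60.2 and 19.4 in the wild type. Each wild-type array was thus below a signal of 64 and each frb1-1 array above it. The mean log2 signal was 7.65 in frb1-1 and 5.01 in the wild type, so that the gene passed the minimum only through the frb1-1 arrays. Its log2 difference of 2.64 (standard error 0.54, 95% interval 1.46 to 3.82) did not pass the test (adjusted p = 0.0739 from limma). The fold is not exact, since the wild-type signals are near background. With a pseudocount of 32 the log2 difference was 1.83 (adjusted p = 0.0507 from limma).

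CML37 and CML39 are calmodulin-like genes of the same branch, and both had signals at the bottom of the range. CML37 had signals of 6.11, 20.0 and 7.91 in frb1-1 and 4.46, 3.93 and 3.92 in the wild type. CML39 had signals of 3.58, 10.2 and 3.08 in frb1-1 and 16.2, 2.38 and 12.5 in the wild type. The frb1-1 arrays of CML37 lay above the wild-type arrays and those of CML39 overlapped, all at levels where MAS 5.0 signals carry little information, and no fold is given. CML39 lies beside CML38 on chromosome 1 in the TAIR10.1 annotation. TCH2 and TCH3, the calmodulin-like genes first found by touch, as well as CML9 and CBP60g, a calmodulin-binding regulator of defence genes, had no named probe set.

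**Figure D2:**
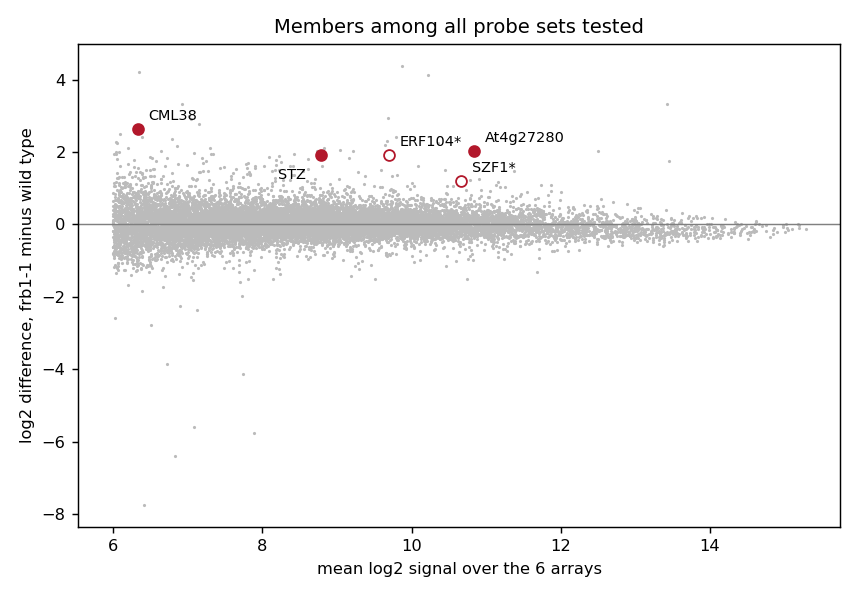
Log2 difference, frb1-1 minus wild type, against the mean log2 signal over the 6 arrays for the 15218 probe sets tested (grey) and the 5 tested members (red, open and with an asterisk where the published list alone names the gene). The members lie between 1.19 (SZF1) and 2.64 (CML38, whose fold is not exact).

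The median log2 difference of the 5 tested members was 1.93, and 2.03 for the 3 that the annotation names, with 0.01 over all probe sets tested. These medians are a description only, as SZF1 and ERF104 had to be changed, and CML38 high in frb1-1, to be among them. The members did not share one order of the arrays within a group. Replicate 1 was the brightest frb1-1 array for 3 of the 5 tested members (SZF1, ERF104 and CML38), replicate 2 for At4g27280 and replicate 3 for STZ. In the wild type, replicate 1 was the brightest for 2 members (SZF1 and At4g27280), replicate 2 for CML38 and replicate 3 for 2 (STZ and ERF104). No array was the brightest, or the dimmest, for all of them.

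The other roles in the list were not analysed here. The kinase genes MPK3 and MKK9, MAP kinase pathway members that are activated by wounding and pathogens, had no named probe set. Nor had the jasmonate genes JAZ1, JAZ5, JAZ7, JAZ8 and JAZ10, which encode repressors of the jasmonate response, and LOX3, a lipoxygenase of jasmonate synthesis. The same held for ATL2 and ATL6, which encode RING-type ubiquitin ligases, NHL3, a plasma membrane protein of defence, and RBOHD, the NADPH oxidase of the oxidative burst.

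Related genes of the same families and pathways, listed by membership, were set beside the members. Of 98 such genes, 25 had a named probe set, and 20 of these passed the minimum. None was called higher or lower (limma, adjusted p under 0.05), while 5 were higher and 1 lower at an unadjusted p under 0.05, which 3.86% and 2.1% of all probe sets tested were. Of the 20, 12 had a positive and 8 a negative log2 difference, with a median of 0.27. At5g51190 is among them through the published list alone. The 19 named by the annotation had 4 higher and 1 lower at an unadjusted p under 0.05 and a median of 0.23, and the groups did not overlap for 5 in the higher direction. Over all 20, the groups did not overlap for 6 in the higher and 1 in the lower direction. Of all probe sets tested, 6.26% did not overlap in the higher and 4.65% in the lower direction. CML23, which passed the minimum only through its frb1-1 arrays, is among both the 5 and the 6 higher genes whose groups did not overlap. At5g51190 is among the 6, and among the 5 of all 20 that were higher at an unadjusted p under 0.05. These counts are a description.

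**Figure D3:**
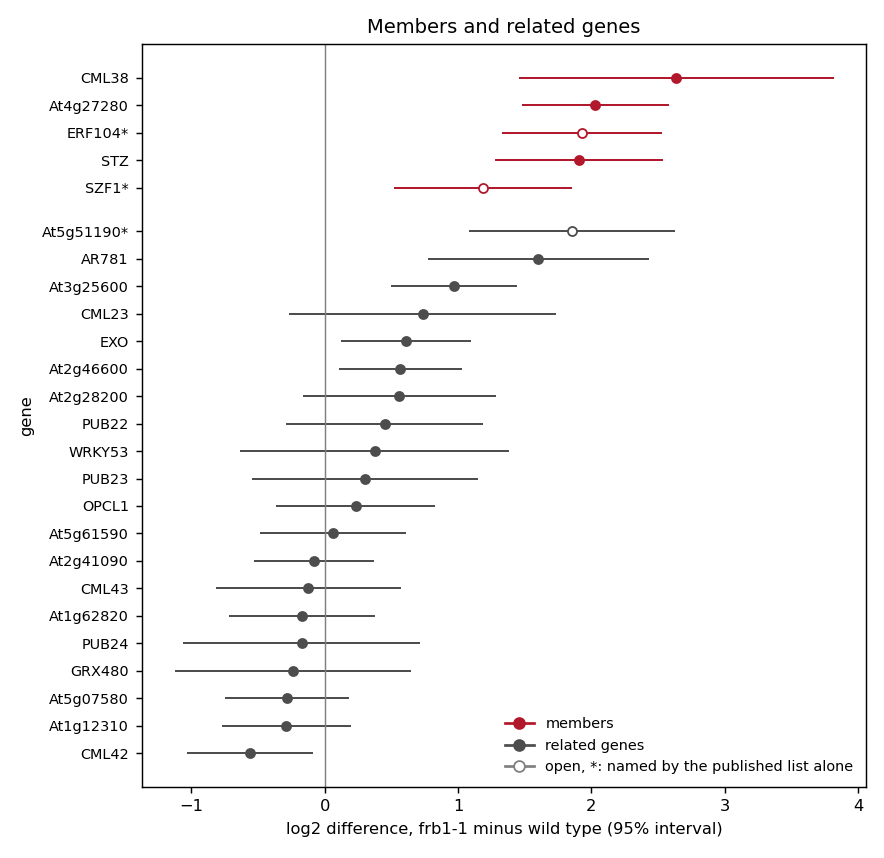
Log2 difference, frb1-1 minus wild type, with its 95% interval from limma for the 5 tested members (red, top) and the 20 tested related genes (grey), each block ordered by size; open symbols and asterisks mark genes named by the published list alone. The intervals of the members lie above 0, but SZF1 and ERF104 had to be changed, and CML38 high in frb1-1, to be tested. Those of most related genes include 0, while that of CML42, the lowest at -0.56, lies below 0.

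Of 23 other calmodulin and calmodulin-like genes, 13 had a named probe set and 8 were tested. None was called (limma), with 2 higher and 1 lower at an unadjusted p under 0.05. The median log2 difference of the 8 was -0.10, with 3 positive and 5 negative. With no filter on dim probe sets the list had 13 measured genes and a median of 0.17, the opposite sign. The calmodulin-like gene At3g25600 had signals of 1132, 1133 and 1297 in frb1-1 and 496, 679 and 658 in the wild type. Its groups were well apart, with a log2 difference of 0.97 (standard error 0.22, 95% interval 0.50 to 1.44) that did not pass the test (adjusted p = 0.116 from limma). CML42 had signals of 340, 375 and 385 in frb1-1 and 484, 624 and 522 in the wild type, so that it was dimmer on every frb1-1 array. Its log2 difference was -0.56 (standard error 0.22), which did not pass the test (adjusted p = 0.693 from limma). The EF-hand gene At2g46600 had signals of 3984, 3959 and 2737 in frb1-1 and 2358, 2153 and 2609 in the wild type, with a log2 difference of 0.57 (standard error 0.21) and an adjusted p of 0.676 in limma. CML23, the closest relative of TCH2, had signals of 123, 64.6 and 104 in frb1-1 and 51.3, 59.3 and 59.0 in the wild type. Its log2 difference was 0.74 (standard error 0.46), with a 95% interval from -0.26 to 1.74. The mean log2 signal of CML23 was 6.55 in frb1-1 and 5.82 in the wild type, so that it passed the minimum only through the frb1-1 arrays. Its values are a description, and the positive count and the median of the 8 include it.

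Of 14 other ERF factors of the same subfamilies, 3 were measured and none was called, with 1 higher at an unadjusted p under 0.05. This was At5g51190 (ERF105), the near relative of ERF104, which also owes its name to the published list and whose values are a description. Its signals were 549, 431 and 589 in frb1-1 and 178, 78.1 and 213 in the wild type, a log2 difference of 1.85 (standard error 0.35). The ERF gene At5g07580 had signals of 1233, 1126 and 1049 in frb1-1 and 1125, 1532 and 1521 in the wild type. Its groups overlapped, with a log2 difference of -0.28 (standard error 0.21).

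Of 7 other zinc finger genes of the ZAT and AZF family, At2g28200 alone was measured. Its signals were 564, 825 and 609 in frb1-1 and 254, 637 and 548 in the wild type, with groups that overlap and a log2 difference of 0.56 (standard error 0.33, 95% interval -0.16 to 1.28). Of 19 genes of jasmonate synthesis, turnover and response, OPCL1, which activates a jasmonate precursor for beta-oxidation, alone was measured. It had signals of 332, 214 and 238 in frb1-1 and 269, 186 and 207 in the wild type, a log2 difference of 0.23 (standard error 0.27, 95% interval -0.36 to 0.83). None of 7 other JAZ genes and none of 10 other MAP kinase, MAP kinase kinase and RBOH genes had a named probe set.

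Of 18 other genes of rapid responses, 7 were measured and none was called (limma), with 2 higher at an unadjusted p under 0.05, 5 positive and 2 negative, and a median log2 difference of 0.38. AR781 had signals of 444, 541 and 385 in frb1-1 and 75.2, 221 and 199 in the wild type. Its groups did not overlap, and the log2 difference of 1.60 (standard error 0.38, 95% interval 0.78 to 2.43) did not pass the test (adjusted p = 0.163 from limma). EXO, a gene of growth promoted by brassinosteroid, had signals of 10981, 7297 and 6955 in frb1-1 and 5787, 4473 and 6060 in the wild type, with a log2 difference of 0.61 (standard error 0.22) and an adjusted p of 0.668 in limma. The stress-induced ubiquitin ligase genes PUB22, PUB23 and PUB24 had log2 differences of 0.45, 0.30 and -0.17, with groups that overlap. WRKY53, a transcription factor of leaf ageing and defence, had 0.38, and GRX480, a glutaredoxin of the defence response, had -0.24, and their groups overlapped as well.

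**Figure D4:**
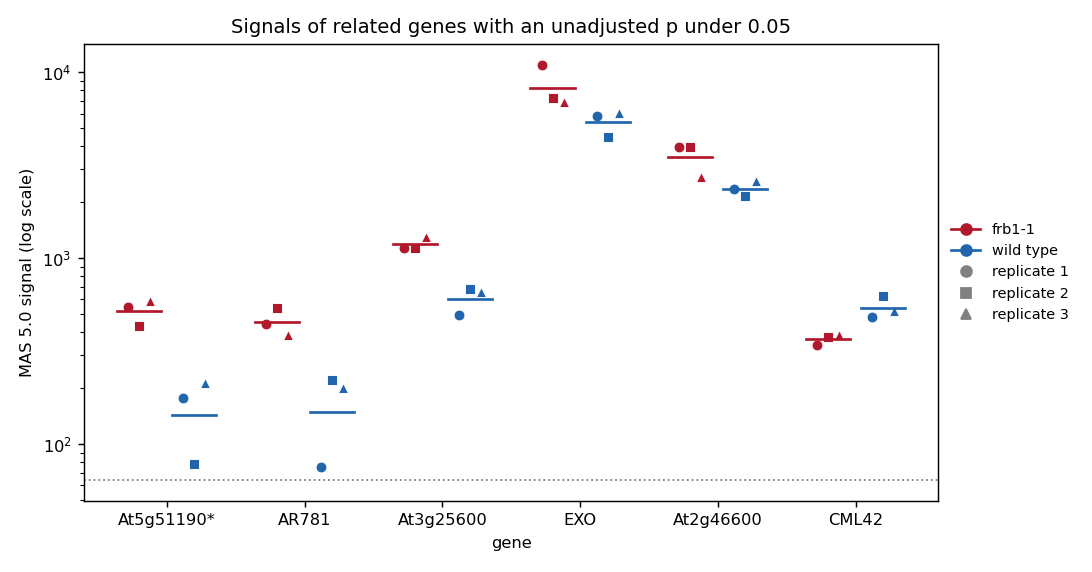
MAS 5.0 signal (log axis) on each array of the 6 related genes with an unadjusted p under 0.05, frb1-1 in red and wild type in blue, with a symbol for each replicate, a bar at the geometric mean and an asterisk for the gene named by the published list alone. At5g51190, AR781, At3g25600, EXO and At2g46600 are higher and CML42 is lower on every frb1-1 array, and none of them had an adjusted p under 0.05.

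The members were also set beside the state of the arrays and of the tissue. The median signal was 176 to 183 on the frb1-1 arrays and 153 to 199 on the wild-type arrays. Control probe sets for GAPDH, a sign of RNA quality, had a ratio of 3′ to 5′ signal of 1.30 to 2.46 in frb1-1 and 1.46 to 1.77 in the wild type. The ratio for ubiquitin was 1.98 to 2.63 in frb1-1 and 2.15 to 2.34 in the wild type, and that for actin 14.3 to 19.3 in frb1-1 and 10.4 to 20.0 in the wild type. For each of these controls the groups overlap. Of 8 root markers, 3 were measured (EXPA7, EXPA18 and At5g17820), with summed signals of 3535 to 5205 in frb1-1 and 3631 to 5194 in the wild type. Of 8 leaf markers, RCA alone was measured, with signals of 16255 to 23642 in frb1-1 and 22730 to 31295 in the wild type. Of 7 seed storage markers, 2 were measured, CRA1 and PAP85, with summed signals of 4273 to 7591 in frb1-1 and 260 to 503 in the wild type. CRA1, which makes up most of this sum, owes its name to the published list. PAP85, named by the annotation, had signals of 280, 345 and 359 in frb1-1 and 47.4, 115 and 80.5 in the wild type. No marker was at 0. The PAP85 signal thus moved with the members, and its part in their rise was not tested.

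**Figure D5:**
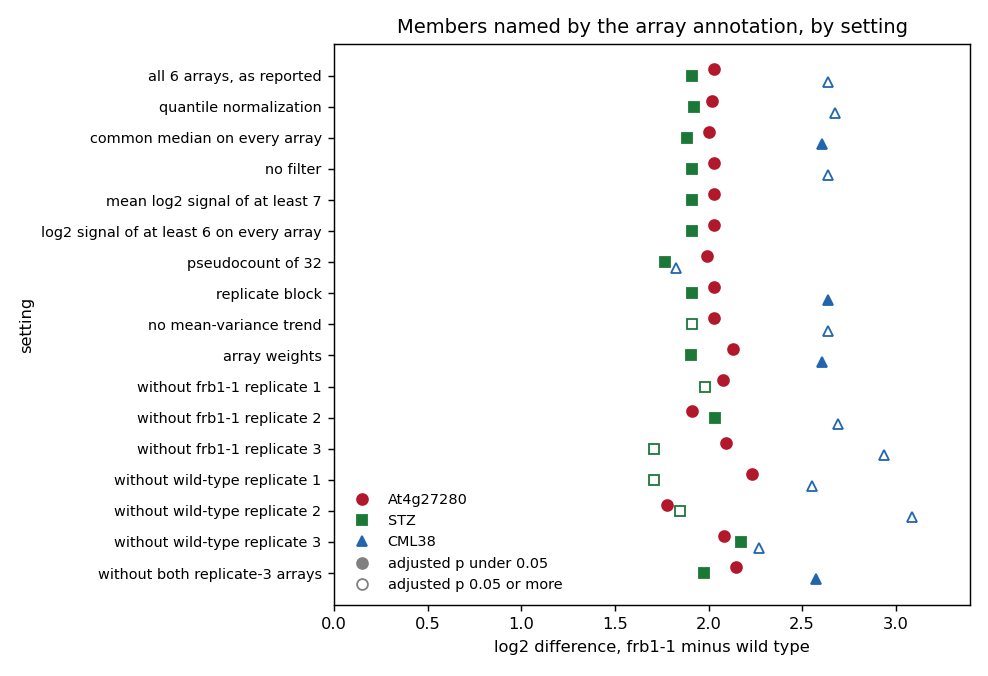
Log2 difference, frb1-1 minus wild type, of At4g27280 (circles), STZ (squares) and CML38 (triangles) under the reported setting and each alternative, filled where the adjusted p from limma was under 0.05. At4g27280 is filled in every row, STZ and CML38 in some, and each value lies above 1.7. CML38 passed the minimum only through its frb1-1 arrays, so that its symbols are a description.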

How the data were processed

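The authors computed MAS5 signal intensities for 6 Affymetrix ATH1 arrays and scaled them to a common target. The deposited intensity values are linear, with a trimmed mean of 500.0 to 500.1 on every array, and are not pooled. The authors' later removal of absent probe sets is not part of this table, and detection calls were not used here. Of 22810 probe sets, 64 controls were left out. Log2 signals without a pseudocount were fitted by genotype in limma 3.58.1 (R 4.3.3), with lmFit and an eBayes step that allows a mean-variance trend. Arrays correlated from 0.918 to 0.972 within a group and from 0.920 to 0.962 between groups. The number of arrays limits the precision. Alternatives changed the normalization, the filter on dim probe sets, the pseudocount, the variance model, the arrays used and the naming of probe sets.

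Probe sets were named through the array annotation, which gives 1 gene to 13513, several to 503 and none to 8730, of which 52 were named by the published list of changed genes. No named member had several probe sets. The members and the lists of related genes were chosen with earlier results of these data known. All members were to be named, with array values for those with a ratio of at least 2 or an unadjusted p under 0.05. From each list of related genes those past the threshold, or else the 2 with the smallest p, were to be named. Other genes were named after their values were seen. No sequence is shown, as the tables used hold none.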

Additional observations from a re-analysis of the deposited data

How the results depend on the processing

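All 5 tested members kept a positive log2 difference under every alternative in which they were measured. At4g27280 was called under 16 of 16 alternatives and STZ under 11 of 16, the fifth loss being the fit with no mean-variance trend (adjusted p = 0.0667 from limma). CML38 was past the threshold under 4 of 13, with adjusted p from 0.0127 to 0.350 in limma. These values are a description, as CML38 passed the minimum only through its frb1-1 arrays. It could not be tested with a minimum mean log2 signal of 7, with a minimum on every array or without frb1-1 replicate 1. In those settings it did not pass the minimum. ERF104 was past the threshold under 14 of 16 alternatives and SZF1 under 2 of 16, a description only, as the published list alone names them. The number of members called higher, 3 with all arrays with ERF104 counted and 2 with annotation names alone, was 5 with the replicate number as a block, 5 without both replicate-3 arrays, 1 with no mean-variance trend and 1 to 3 without any one array, the lowest without frb1-1 replicate 1, where 4 were measured. These counts can include members that were named for their change or passed the minimum only through frb1-1, and are a description. The cause of their changes between settings was not tested. The replicate numbers were not taken to pair the samples. Same-numbered arrays deviated together for replicates 2 and 3 (correlations of 0.28 and 0.32) but hardly for replicate 1 (0.04), and frb1-1 replicate 1 was closest to wild-type replicate 2 (0.11), so that the numbers may pair some arrays. Over all probe sets, the block gave 107 higher and 31 lower calls, against 42 and 14 without it.

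The ratio of at least 2 held for 5 members, for 3 to 5 without any one array (3 without frb1-1 replicate 1, where 4 were measured) and for 3 with annotation names alone, an alternative chosen after seeing the data. Groups that do not overlap were found for 4 to 5 members without any one array and for 3 with annotation names alone. These counts and the median that follows include SZF1, ERF104 or CML38 and are a description. SZF1 and ERF104 had to be changed, and CML38 high in frb1-1, to be tested. The median log2 difference of the members, 1.93, was 1.83 with a pseudocount of 32, 2.004 with array weights, 2.15 without both replicate-3 arrays, 2.03 with annotation names alone and 1.71 to 2.16 without any one array. The median of the other calmodulin and calmodulin-like genes was -0.10 and became 0.17 with no filter, which adds dim genes, and that of the other rapid response genes was 0.38, and 0.42 under quantile normalization. No related list gained or lost a call under quantile normalization, a common median or no filter.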
